A study of Mus musculus with 6 samples.

Results

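The genes described here carry out the uptake of fatty acids and their oxidation in mitochondria and peroxisomes. The list named 46 of them by function. Each gene was read from the probe set annotated with its symbol alone that had the highest mean over the arrays, and 43 of the 46 had such a probe set among 19938 genes tested. Acsl1, Acsl3 and Ucp2 had none and were not analysed here. Messenger RNA was measured on Affymetrix mouse Gene 1.0 ST arrays, 3 from control cells and 3 from cells given valproic acid (VPA), of a murine prostate cancer according to the titles and the design text. The labels call the samples of a group biological replicates. VPA is a branched fatty acid used against epilepsy that inhibits class I histone deacetylases. Dose, exposure time and cell line are unstated in the labels used. However, the fields for strain and cell type name differentiated stem cells of strain 129SV for the control arrays and undifferentiated stem cells of strain Stra8-EGFP/Rosa26 for the VPA arrays. The groups are named after the titles. If the strain and cell type fields hold, treatment, strain and cell state cannot be told apart.

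A long-chain fatty acid enters the cell through membrane proteins such as Cd36, is bound by fatty acid binding proteins and is joined to coenzyme A by an acyl-CoA synthetase. The carnitine shuttle carries the acyl group into the mitochondrion, where cycles of dehydrogenation, hydration, a second dehydrogenation and thiolysis shorten it, and the electron transfer flavoprotein passes the electrons to the respiratory chain. Peroxisomes run a related cycle on very long and branched chains, and their first oxidase makes hydrogen peroxide, which catalase removes. The PPAR receptors are nuclear receptors that bind fatty acids and switch on many of these genes. Valproate is itself activated to a coenzyme A ester and degraded by beta-oxidation.

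With VPA, Cd36 and Hadh rose and Acsl5 fell, while the other 40 measured genes of the list did not pass the test. The test was limma's moderated test over all 19938 genes, with a gene called at a Benjamini-Hochberg adjusted p under 0.05. The 3 called genes were 6.98% of the 43, where 2.34% of all genes tested were called (1.71% higher and 0.632% lower). Differences are given as VPA minus control on the log2 scale, on which 1 is a 2-fold change. They ran from -0.65 for Acsl5 to 1.30 for Cd36, with 31 above 0 (72.1%, against 41.4% of all genes) and 12 below. The median difference of the 43 genes was 0.09, beside -0.035 over all genes tested. In 13 of the 43 genes all VPA arrays lay above all control arrays (30.2%, against 11.1% of all genes), and in 3 genes they lay below (6.98%, against 12% of all genes). At an unadjusted p under 0.05, 12 genes were higher (27.9%, against 9.82% of all genes) and 3 lower (6.98%, against 8.3%). Just outside the threshold were Pex11a, Eci1 and Etfdh, which passed with genes of low values filtered out (adjusted p 0.0442, 0.0494 and 0.0462) and with a trended robust prior (0.0408, 0.0449 and 0.0348). The same genes passed with the replicate number added to the fit as a block. These settings, in the order given, called 4.14%, 3.43% and 6.01% of all genes they tested, against 2.34% in the main fit.

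**Figure D1:**
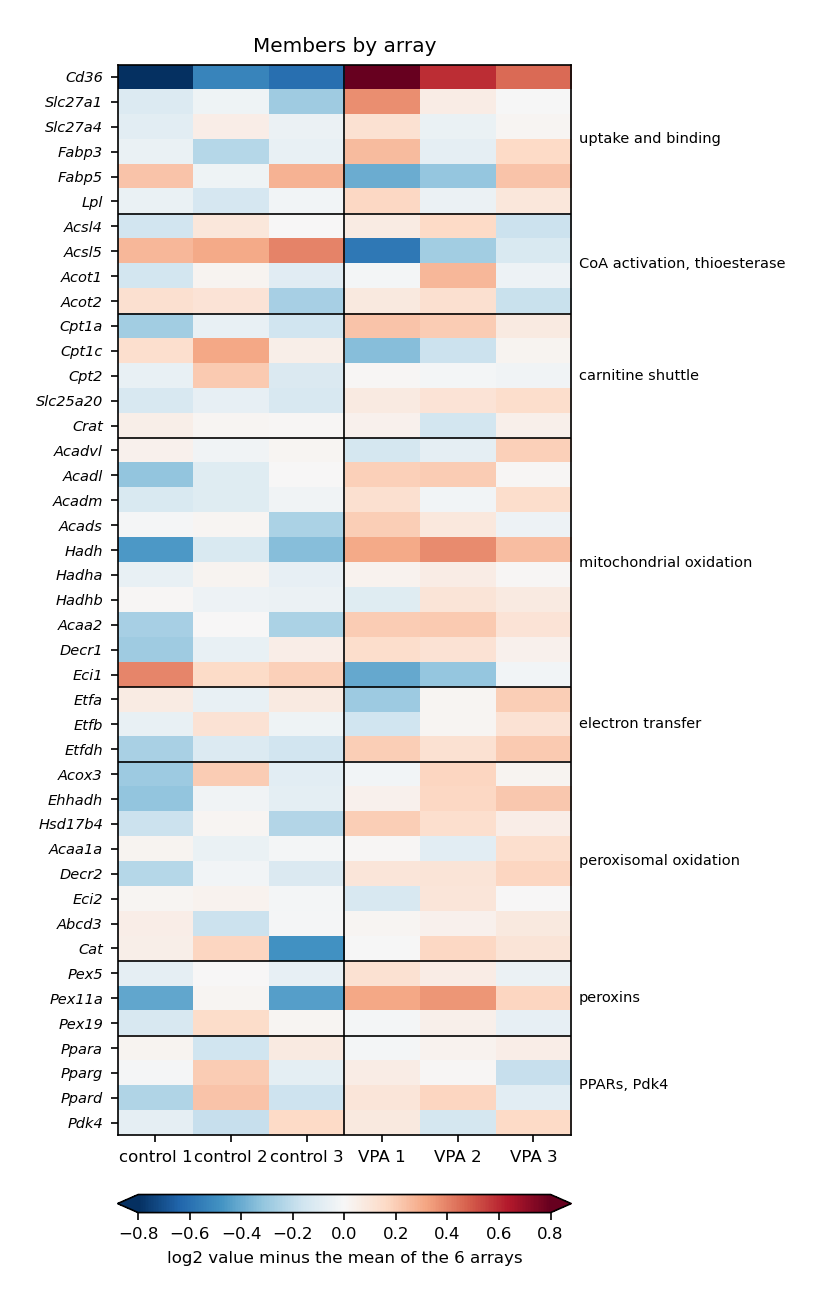
Log2 value of each of the 43 genes on each array, as the difference from the mean of that gene over the 6 arrays (colour), with genes in rows grouped by role and arrays in columns. Cd36, Hadh, Pex11a and Etfdh are higher and Acsl5 and Eci1 lower on all 3 VPA arrays than on any control array, and most other rows are pale.

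To show what lies in front of transcript starts of the called genes, the 250 bases before the start listed in the promoter table are printed for Cd36, Hadh and Acsl5, together with Pex11a, the peroxisomal member with the largest difference. They are from RefSeq, build GRCm38.p6, read 5′ to 3′ on the gene's strand, at chr5:17835897-17836146 (minus strand), chr3:131272102-131272351 (minus), chr19:55253119-55253368 (plus) and chr7:79743132-79743381 (minus). For Hadh and Pex11a this start is the outer end of the annotated gene. For Cd36 and Acsl5 it lies 53063 and 1508 bases inside the annotated gene, and the windows before their outermost starts were not used here. Capitals mark AGGTCA, the hexamer that PPARs and other nuclear receptors bind, and GGGCGG, the GC box bound by Sp1, each on either strand.
Cd36: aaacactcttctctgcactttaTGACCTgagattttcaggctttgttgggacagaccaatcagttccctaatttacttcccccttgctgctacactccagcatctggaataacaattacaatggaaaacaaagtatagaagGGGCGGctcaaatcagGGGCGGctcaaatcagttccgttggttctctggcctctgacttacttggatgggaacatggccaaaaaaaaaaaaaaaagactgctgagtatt
Hadh: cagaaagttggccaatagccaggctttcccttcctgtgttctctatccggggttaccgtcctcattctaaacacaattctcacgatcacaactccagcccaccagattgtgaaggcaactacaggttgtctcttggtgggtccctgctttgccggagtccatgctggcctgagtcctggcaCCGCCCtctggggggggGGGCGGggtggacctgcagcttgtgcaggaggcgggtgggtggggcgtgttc
Acsl5: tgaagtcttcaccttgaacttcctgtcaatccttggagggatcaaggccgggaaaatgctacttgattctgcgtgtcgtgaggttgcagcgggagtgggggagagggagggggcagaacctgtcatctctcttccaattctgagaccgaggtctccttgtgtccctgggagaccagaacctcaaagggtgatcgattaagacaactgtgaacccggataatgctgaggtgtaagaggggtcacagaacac
Pex11a: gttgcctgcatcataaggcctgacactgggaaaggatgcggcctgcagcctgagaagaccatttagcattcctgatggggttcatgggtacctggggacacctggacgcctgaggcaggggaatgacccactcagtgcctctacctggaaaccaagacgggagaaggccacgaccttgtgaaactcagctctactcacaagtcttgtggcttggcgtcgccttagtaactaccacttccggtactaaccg

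The Cd36 window held 1 AGGTCA hexamer and 2 GC boxes and had 3 CpG dinucleotides, whereas the Hadh window held 2 GC boxes and 8 CpG. The windows of Acsl5 and Pex11a, with 7 and 8 CpG, held neither motif. Over the 36 measured members with a window in the RefSeq table, 43 windows in all, the median was 12 CpG, and it was 11 over the 19177 windows of all genes tested. GGGCGG was present for 25 of the 36 genes (69.4%) and for 49.3% of the 15614 tested genes with a window. AGGTCA was present for 7 of the 36 (19.4%) and for 14.3% of those genes. The 7 were Cd36, Cpt1a, Cpt1c, Acadm, Acadvl, Cat and Pparg. The full PPAR element AGGTCANAGGTCA, which contains the hexamer as a pair, was found for 0 of the 36 genes and for 7 of the 15614 (0.0448%). These matches say only which letters stand in the windows.

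Among the genes of uptake and binding, Cd36 rose and 5 did not pass. Cd36 encodes a scavenger receptor that takes up long-chain fatty acids and oxidised lipoproteins. Its values were 6.89, 7.18 and 7.11 on control arrays 1, 2 and 3 and 8.61, 8.30 and 8.16 on VPA arrays 1, 2 and 3. The lowest VPA array thus lay almost 1 log2 unit above the highest control array. Cd36 was 2.46-fold higher with VPA (95% interval 2.01 to 3.00), a difference of 1.30 (SE 0.128, n = 3 per group, limma adjusted p = 0.00702). In such bulk RNA, more expressing cells and more RNA per cell cannot be told apart. The exact two-sided permutation test of the 6 values gave p = 0.1, the smallest that 3 against 3 arrays allow, as it also did for Hadh and Acsl5. The Cd36 call held whichever single array was left out, but not with the 35556 probe sets of the table tested in place of 1 per gene (adjusted p = 0.112), nor without both replicates 2 (0.0757).

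Cd36 is also a marker of macrophages, adipocytes and endothelial cells, so markers of these cells were read on the same arrays. None of 11 macrophage, 8 adipocyte or 8 endothelial markers was called. Only 2.34% of all genes tested were called, so lists this short say little by holding none. Their mean values ran from 5.997 to 6.095 on control and from 5.929 to 6.045 on VPA arrays for macrophages. For adipocytes the ranges were 6.66 to 6.71 and 6.61 to 6.68, and for endothelial cells 6.67 to 6.88 and 6.64 to 6.84. Of the 11 macrophage genes 3 differed by more than 0 (Cd68 by 0.21, Cd163 by 0.19 and Tyrobp by 0.03) and 8 by less, among them Adgre1 and Csf1r by -0.09 and -0.08 and Cd14 by -0.55 (adjusted p = 0.16, groups separate). Of the 8 adipocyte genes 2 differed by more than 0 (Fabp4 and Lipe) and 6 by less, among them Adipoq by -0.19. Of the 8 endothelial genes 2 differed by more than 0 (Tek and Kdr) and 6 by less, among them Pecam1 by -0.11. The ranges of the groups overlapped for each list, and the part of such cells in the Cd36 difference was not tested. Fabp4, an adipocyte gene that macrophages and endothelium also express, was at 0.30 (limma adjusted p = 0.189, groups separate). The endothelial genes Tek and Kdr were at 0.42 (0.182) and 0.29 (0.508), with overlapping groups.

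Of the transport proteins, Slc27a1, which couples uptake to acyl-CoA formation, had 8.47, 8.54 and 8.29 on the control arrays and 8.95, 8.64 and 8.58 on the VPA arrays. The groups did not overlap, but VPA array 3 lay only slightly above control array 2. The difference was 0.28 (SE 0.117, limma adjusted p = 0.24). Slc27a4, its relative, differed by 0.05. Lpl, the lipase that frees fatty acids from lipoproteins, differed by 0.14, and the binding protein genes Fabp3, of heart and muscle, and Fabp5, of the epidermis, by 0.22 and -0.32. In these 4 genes the groups overlapped. Fabp3 and Fabp5 each had a second probe set, which differed by 0.26 and -0.30, close to the first. The locus that each probe set reads was not checked, so the sets of a gene may not be independent.

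**Figure D2:**
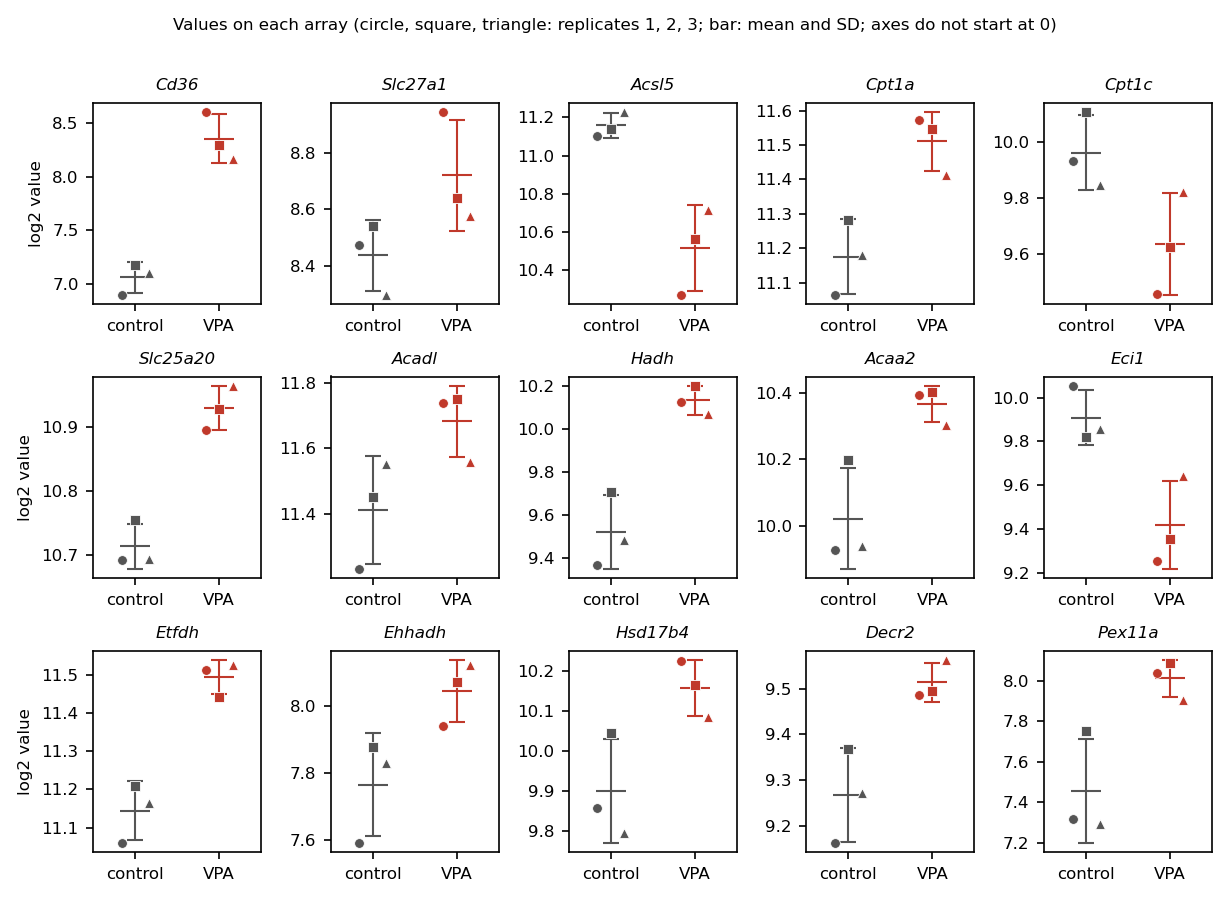
Log2 values (vertical axes, not starting at 0) of the 15 genes with an unadjusted limma p under 0.05 and groups that do not overlap, on control arrays (grey) and VPA arrays (red). Circles, squares and triangles are replicates 1, 2 and 3, and bars give the mean and SD of 3 arrays. Cd36 shows the widest gap between groups in log2 units, and in most panels of higher genes the control square, replicate 2, is the control nearest to the VPA arrays.

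Activation to the coenzyme A ester was represented by 4 measured genes, of which Acsl5 fell and 3 did not pass. Acsl5 encodes a long-chain acyl-CoA synthetase of mitochondria and the endoplasmic reticulum. Its values were 11.10, 11.14 and 11.23 on the control arrays and 10.27, 10.56 and 10.71 on the VPA arrays. The controls lay close together, and all VPA arrays were below them with a wider spread. Acsl5 fell to 0.639 of its control level (95% interval 0.533 to 0.767), a log2 difference of -0.65 (SE 0.117, n = 3 per group, limma adjusted p = 0.0275). Its call was lost when control array 1, control array 3, VPA array 1 or VPA array 2 was left out, with an adjusted p of 0.0989, 0.0965, 0.0801 and 0.0915 in turn. It also ended with all probe sets tested (0.166) and without both replicates 2 (0.148).

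Acsl4, a synthetase that prefers arachidonic acid, stayed between 13.02 and 13.35 on all 6 arrays and differed by 0.04. The thioesterase genes Acot1 and Acot2, of cytosol and mitochondria, which split acyl-CoA again, differed by 0.14 and 0.02. These are near-identical neighbouring copies that can share probes, so both values are uncertain. The groups overlapped in all 3 genes.

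None of the 5 genes of the carnitine shuttle passed. At an unadjusted limma p under 0.05, 2 were higher (40%, against 9.82% of all genes) and 1 lower (20%, against 8.3%). Cpt1a, the liver isoform of the outer-membrane transferase that controls entry into the mitochondrion, had 11.06, 11.28 and 11.18 on the control arrays and 11.57, 11.55 and 11.41 on the VPA arrays. Cpt1c, the brain isoform, which sits in the endoplasmic reticulum, had 9.93, 10.11 and 9.85 on the control and 9.46, 9.63 and 9.82 on the VPA arrays. The isoforms thus stood in opposite order, Cpt1a higher with VPA by 0.34 (SE 0.0931, limma adjusted p = 0.0992) and Cpt1c lower, at -0.33 (SE 0.115, adjusted p = 0.174). VPA array 3 was the VPA array nearest to the controls for both genes. Slc25a20, the carrier that exchanges acylcarnitine for carnitine across the inner membrane, had 10.69, 10.75 and 10.69 on the control and 10.90, 10.93 and 10.96 on the VPA arrays. Its groups were tight and separate, with a difference of 0.21 (SE 0.0793, adjusted p = 0.193). Cpt2, the inner-membrane transferase, and Crat, which acts on short chains, differed by -0.03 and -0.05, with overlapping groups.

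Of the 10 genes of the mitochondrial cycle Hadh rose and 9 did not pass. Hadh encodes the dehydrogenase that oxidises hydroxyacyl-CoA of short and medium chains. Its values were 9.37, 9.71 and 9.48 on the control arrays and 10.13, 10.20 and 10.07 on the VPA arrays. The VPA arrays lay close together above the controls, among which replicate 2 was the highest. Hadh was 1.53-fold higher (95% interval 1.30 to 1.8), a difference of 0.62 (SE 0.104, n = 3 per group, limma adjusted p = 0.0223). Leaving out any of control arrays 1 and 3 or VPA arrays 1 and 2 ended the call, with an adjusted p of 0.0947, 0.0792, 0.0844 and 0.0915. It ended also with all probe sets tested (0.15) and without both replicates 2 (0.0838).

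The acyl-CoA dehydrogenases, which take the first step of each cycle and differ in the chain length they accept, showed small differences. Acadl, for long chains, had 11.23, 11.45 and 11.55 on the control arrays and 11.74, 11.75 and 11.56 on the VPA arrays. Control array 3 and VPA array 3 almost met, and the difference was 0.27 (SE 0.107, limma adjusted p = 0.219). Acadm, for medium chains, differed by 0.17 (adjusted p = 0.345) with groups that did not overlap. Acads, for short chains, and Acadvl, for very long chains, differed by 0.16 and -0.02, with overlap.

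Hadha and Hadhb, the subunits of the trifunctional protein for long chains, differed by 0.07 and 0.05. Their values lay within 0.13 and 0.20 log2 units of each other over the 6 arrays, and a second Hadhb probe set differed by 0.06. The locus read by each Hadhb probe set was likewise not checked. In RefSeq the starts of Hadha and Hadhb lie 273 bases apart on opposite strands, so that the 250-base windows before them share 228 bases. Acaa2, the thiolase that ends the mitochondrial cycle, had 9.93, 10.20 and 9.94 on the control and 10.39, 10.40 and 10.30 on the VPA arrays. Its VPA arrays were uniform and its control array 2 was set apart from the other controls, with a difference of 0.35 (SE 0.0984, adjusted p = 0.104). Without control replicate 2, where 2.58% of all genes were called, the difference was 0.43 and passed, at an adjusted p of 0.0492. Acaa2 did not pass with any other single array left out.

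Unsaturated chains need auxiliary enzymes, and the members of this class differed in direction. Eci1, the mitochondrial enoyl-CoA isomerase, had 10.05, 9.82 and 9.86 on the control arrays and 9.25, 9.36 and 9.64 on the VPA arrays. All VPA arrays were below the controls, with VPA array 3 the nearest to them. The difference was -0.49 (SE 0.118, limma adjusted p = 0.0656), and it passed without VPA replicate 3 (-0.61, adjusted p = 0.0212). In that setting 4.09% of all genes were called, against 2.34% with all arrays. Eci1 did not pass with any other single array left out. Decr1, the mitochondrial dienoyl-CoA reductase, differed by 0.19 with overlapping groups. Its peroxisomal counterpart Decr2 had 9.16, 9.37 and 9.27 on the control and 9.49, 9.49 and 9.56 on the VPA arrays. These groups were separate, with a difference of 0.25 (SE 0.0876, adjusted p = 0.18). Eci2, the isomerase found in peroxisomes and mitochondria, differed by -0.02.

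Among the electron carriers, Etfdh, the oxidoreductase that hands electrons to ubiquinone, had 11.06, 11.21 and 11.16 on the control arrays and 11.51, 11.44 and 11.53 on the VPA arrays. The gap between the groups was wider than the range within either. The difference was 0.35 (SE 0.0841, n = 3 per group, limma adjusted p = 0.0667). It passed with the filter on low values, with the trended robust prior and with the replicate number as a block. In each of these settings a larger share of all genes was called as well. Etfa and Etfb, the subunits of the flavoprotein from which Etfdh takes the electrons, differed by -0.05 and -0.02. On the VPA arrays Etfa ran from 10.68 to 11.17, which encloses all its control values.

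**Figure D3:**
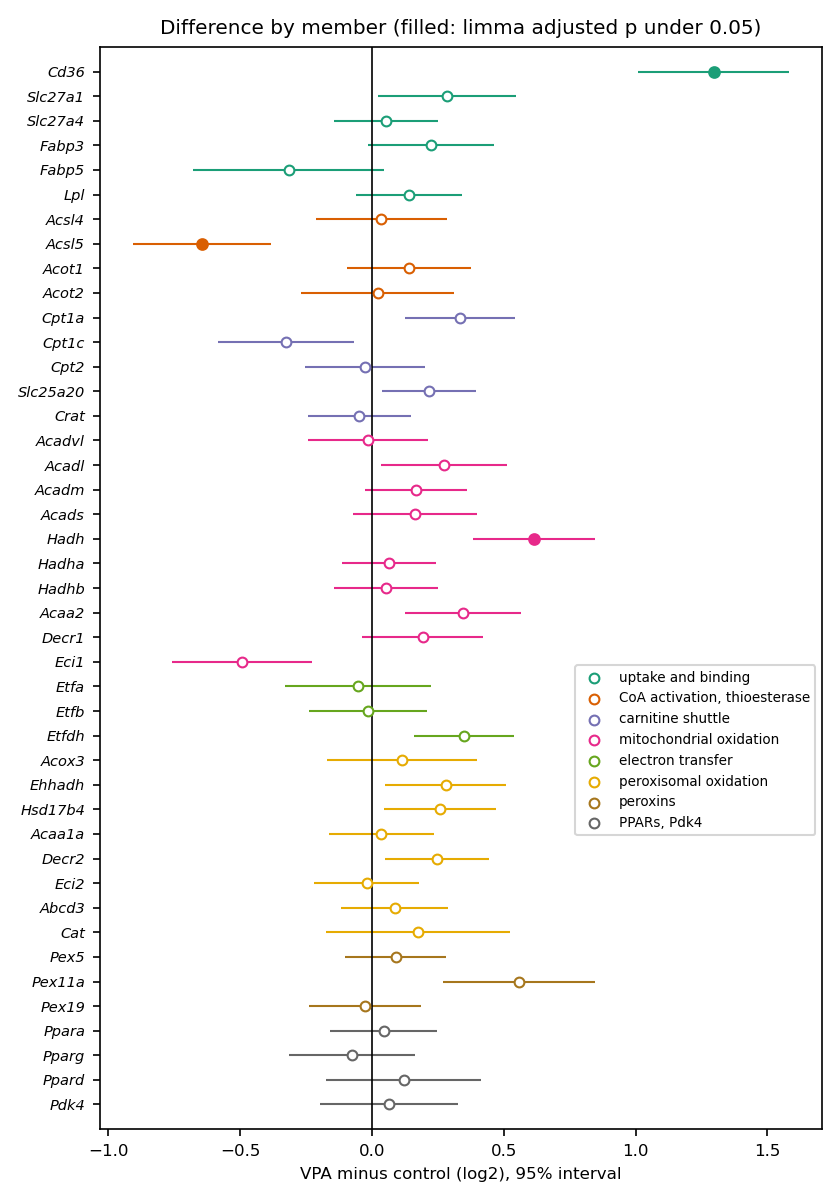
Difference VPA minus control (horizontal axis, log2) with its 95% interval from limma for each of the 43 genes, coloured by role. Filled points, for Cd36, Acsl5 and Hadh, are called at an adjusted p under 0.05, and most open points lie to the right of 0 with intervals that reach it or end near it.

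None of the 8 genes of peroxisomal oxidation passed, and 7 of them differed by more than 0 (87.5%, against 41.4% of all genes). In 3 of the 8 all VPA arrays lay above all control arrays (37.5%, against 11.1% of all genes). These 3 were Decr2 and the bifunctional enzymes, which hydrate and then dehydrogenate the chain. Ehhadh, the L-form, had 7.59, 7.88 and 7.83 on the control arrays and 7.94, 8.07 and 8.12 on the VPA arrays. Hsd17b4, the D-form, which also handles branched chains and bile acid precursors, had 9.86, 10.05 and 9.80 on the control and 10.23, 10.16 and 10.09 on the VPA arrays. In both, a narrow gap separated the highest control array, replicate 2, from the VPA arrays. The differences were 0.28 (SE 0.102, limma adjusted p = 0.19) and 0.26 (SE 0.095, adjusted p = 0.192). Acox3, an oxidase of branched chains, Acaa1a, the peroxisomal thiolase, and Abcd3, a transporter of the peroxisomal membrane, differed by 0.11, 0.04 and 0.09. Cat, which encodes catalase, had 9.59, 9.71 and 9.05 on the control and 9.53, 9.70 and 9.64 on the VPA arrays. Control array 3 alone was low, and the difference of 0.17 became -0.02 without it.

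Peroxisome biogenesis was represented by 3 genes, none of which passed. Pex11a, which encodes a membrane protein of peroxisome elongation and division, had 7.32, 7.75 and 7.29 on the control arrays and 8.04, 8.09 and 7.91 on the VPA arrays. Control array 2 stood apart from the other controls and near the VPA arrays. The difference was 0.56 (SE 0.128, n = 3 per group, limma adjusted p = 0.0574), or 1.47-fold. Without control replicate 2, where 2.58% of all genes were called, it was 0.71 and passed (adjusted p = 0.0177). Pex11a did not pass with any other single array left out. Pex5, the receptor that imports matrix enzymes, and Pex19, the chaperone of membrane proteins, differed by 0.09 and -0.03 with overlapping groups.

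For the receptors and the fuel switch the groups overlapped in all 4 genes. Ppara, Pparg and Ppard, the nuclear receptors of this pathway, differed by 0.04, -0.08 and 0.12. Pdk4, the kinase that shuts off pyruvate dehydrogenase when fatty acids are burned and a usual PPAR target, differed by 0.06. Its values stayed between 5.70 and 6.05, and it was the 1 of the 43 genes that would not pass a filter of at least 6 in 3 arrays. The 95% intervals of these 4 differences were -0.16 to 0.25, -0.31 to 0.16, -0.17 to 0.42 and -0.20 to 0.33, in the order given.

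Beyond the named genes, 7 further lists of the same pathways, also chosen with earlier results known, held 167 measured genes of 183. Of these 4 rose (2.4%, against 1.71% of all genes), none fell and 163 did not pass, with a median difference of 0.05. Bdh1, a ketone body dehydrogenase, rose 1.85-fold (log2 0.88, SE 0.156, limma adjusted p = 0.0252), from 7.20, 7.15 and 7.25 to 8.47, 8.02 and 7.76. Acad11, an acyl-CoA dehydrogenase, rose 1.37-fold (adjusted p = 0.0392). Bdh1 and Acad11 were the called genes among 28 of mitochondrial oxidation and carnitine supply, where 10 genes were higher and 0 lower by an unadjusted p under 0.05 (over all genes, 9.82% were higher and 8.3% lower by that measure). Among 23 further genes of activation and thioesterases Acbd5, a peroxisomal protein that binds acyl-CoA and tethers the organelle to the endoplasmic reticulum, rose 1.5-fold (0.0441). Among 16 genes of fuel choice and uncoupling Pdp1, the phosphatase that activates pyruvate dehydrogenase, rose 1.53-fold (0.0394). None of the 4 was called once control array 1 or 3 or VPA array 1 or 2 was left out. In those settings no gene of these lists was called by limma. Of the 167 genes 32, 37, 35 and 35 had an unadjusted p under 0.05, beside 2520, 2829, 2732 and 2430 of all 19938.

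In the remaining lists no gene was called by limma, and their counts at an unadjusted p under 0.05 are to be read against the same 9.82% and 8.3%. Of 27 genes of uptake, lipolysis and lipid droplets, 1 was higher and 4 were lower with an unadjusted p under 0.05, and the median difference was -0.07. Vldlr, a lipoprotein receptor, was at -0.48 (adjusted p = 0.0627) and Angptl4, an inhibitor of Lpl and a PPAR target, at -0.26 (0.141). Of these 27 differences 8 were above 0 (29.6%, against 41.4% of all genes) and 19 below. Of 37 further peroxisomal genes, 9 were higher and 2 lower at that level. Ech1, an isomerase of dienoyl-CoA, was at -0.37 (0.065) and Abcd2, a transporter of very long chains, at 0.59 (0.1). Of 14 further peroxins and fission genes, 0 were higher and 1 lower, with Fis1, an adaptor of organelle fission, at -0.32 (0.0994) and Pex26 at 0.19 (0.299). Of 24 PPAR partners and coregulators, 3 were higher and 2 lower, shares (12.5% and 8.33%) near those of all genes, with the coactivator Ncoa1 at 0.44 (0.102) and the liver X receptor Nr1h3 at -0.44 (0.118).

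**Figure D4:**
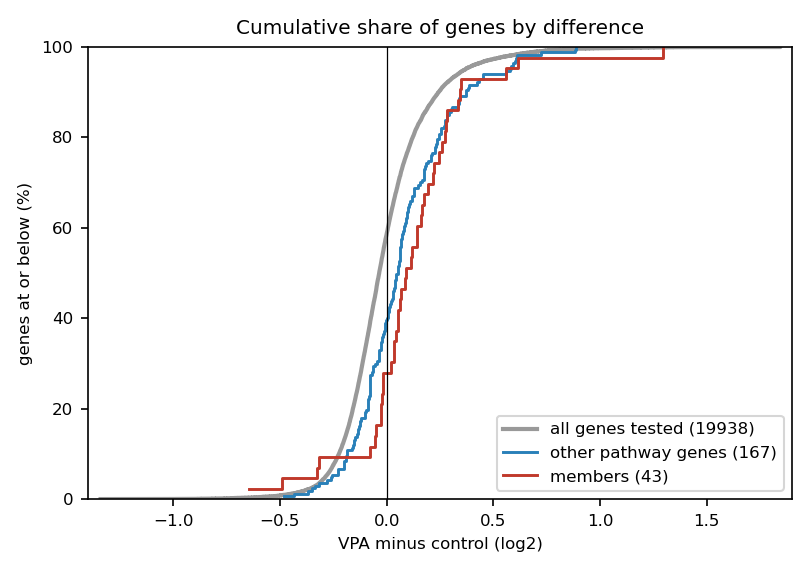
Cumulative share of genes (vertical axis, percent) at or below each difference VPA minus control (horizontal axis, log2) for the 43 genes (red), the 167 other pathway genes (blue) and all 19938 genes tested (grey). The red curve lies to the right of the grey one over most of its range, with medians of 0.09 and -0.035.

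Across the arrays, the 43 genes averaged -0.098, 0.0032 and -0.079 on control arrays 1, 2 and 3, relative to each gene's mean over the 6 arrays, and 0.049, 0.062 and 0.064 on VPA arrays 1, 2 and 3. Control array 2 was thus intermediate. In 11 of the 13 genes whose VPA arrays all lay above the controls (84.6%), control array 2 was the highest control, and this was so in 56% of the 2215 such genes over the whole table. VPA array 3 was the lowest VPA array in 8 of the 13 (61.5%), beside 60.8% of the 2215. By role, the means of the mitochondrial cycle were -0.11, -0.024 and -0.073 on the control and 0.054, 0.076 and 0.075 on the VPA arrays. Those of peroxisomal oxidation were -0.11, 0.018 and -0.13 on the control and 0.024, 0.098 and 0.098 on the VPA arrays. The part of single arrays in these differences was not tested beyond leaving each out.

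The medians of the 6 arrays ran from 7.15 to 7.18. Because 3 arrays per group limit the precision, the median standard error of the 43 genes was 0.102. The count of called genes over the whole table went from 467 to between 20 and 815 when 1 array was left out, and among the 43 from 3 to between 1 and 5. Of 16 prostate markers 14 were measured and none was called, and neither was any of 10 pluripotency or 7 hepatocyte markers. These lists too are short beside the 2.34% of all genes called. The values carry no detection call, so the absence of a marker cannot be read from them. The prostate secretory gene Pbsn was at 3.55 on control and 3.50 on VPA arrays, the luminal keratin Krt8 at 7.75 and 7.44 and Hoxb13 at 7.88 and 7.93. Epcam, at 5.84 and 6.14 (limma adjusted p = 0.1), and Fkbp5, at 10.15 and 10.31 (0.336), were higher on all VPA arrays than on any control array. These 2 of 14 are 14.3%, near the 11.1% of all genes. Of the 14 prostate markers 7 differed by more than 0 and 7 by less. The pluripotency genes had mostly lower values on the arrays titled VPA, which the cell type field calls undifferentiated. Of the 10, 8 differed by less than 0, as did 11684 of all 19938 genes, and the median was -0.17. At an unadjusted limma p under 0.05, 3 were lower (30%, against 8.3% of all genes), and 3 had separate groups (30%, against 12%). Other marker lists also lay mostly below 0, with 5 of 7 hepatocyte, 6 of 8 adipocyte, 6 of 8 endothelial and 8 of 11 macrophage genes. The bearing of these counts on cell state was not tested. Pou5f1 was at 5.63 and 5.27, Nanog at 6.35 and 6.14 and Sox2 at 11.58 and 11.26.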

How the data were processed

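Titles set the groups of the 6 samples (3 control, 3 VPA). Total RNA was hybridised, per the labels' protocols. The deposited log2 values were used as they stand. RMA and Affymetrix Expression Console are named without version in the submitters' processing notes. RMA equalises the distributions of the arrays, so a shift common to most genes is removed. No genome build is stated.

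Of 35556 probe sets, 21789 had exactly 1 symbol, checked by Entrez identifier against RefSeq (GRCm38.p6), and the one with the highest mean stood for each of 19938 genes. These were tested with limma 3.58.1 (lmFit, eBayes; R 4.3.3), group being the only term, with two-sided p-values adjusted over all genes. The fit was checked on simulated data.

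Every measured member is named. Values on each array are given for members called, or with an unadjusted p under 0.05 and separate groups. From each further list up to 3 called genes in each direction, or the 2 with the smallest p, are named. Array values of Cat and Bdh1 and the marker genes named were chosen after seeing them. Members and lists were chosen with earlier results of these data known. Alternatives were a filter on low values, a second quantile normalization, median centring, a trended robust prior, the replicate block, averaged probe sets, all probe sets, leaving out each array and, added after seeing the data, leaving out both replicates 2.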

Additional observations from a re-analysis of the deposited data

How the results depend on the processing

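The 2 rises and 1 fall among the 43 genes were found again with the arrays centred on their medians and with averaged probe sets, and a second quantile normalization gave 3 higher and 1 lower. With the filter on low values, with the trended robust prior and with the replicate block, 4 were higher and 2 lower. Etfdh, Pex11a and Eci1 passed there as well. Of all genes tested, these settings called 4.14%, 3.43% and 6.01% in turn, against 2.34% in the main fit. With all probe sets tested no member was called (0 higher, 0 lower), where 14 had an unadjusted limma p under 0.05, beside 4372 of all 35556 probe sets. Without both replicates 2 the counts were 0 and 0, where 13 members had such a p, beside 2912 of all 19938 genes. Leaving out 1 array gave from 1 to 4 higher and from 0 to 2 lower. Over all these settings the median difference of the 43 genes stayed between 0.0776 and 0.131, and that of all genes between -0.045 and -0.015.

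For the other pathway lists (4 higher, 0 lower) the counts were 7 and 3 with the filter, 8 and 2 with the trended robust prior, 14 and 4 with the replicate block, 1 lower after a second quantile normalization, and 0 higher with all probe sets and without both replicates 2, where 40 and 38 had an unadjusted p under 0.05. Leaving out 1 array gave from 0 to 10 higher and from 0 to 1 lower. Over all genes (341 higher, 126 lower) the counts were 827 and 372 with the replicate block, 2 and 0 with all probe sets and 0 and 0 without both replicates 2, where 2912 had an unadjusted limma p under 0.05. Leaving out 1 array gave from 15 to 595 higher and from 5 to 220 lower. The cause of these shifts was not tested. Settings that leave out arrays have fewer of them. With all probe sets there are more tests, and the variance prior of limma is estimated over all 35556. Cd36 kept its difference there, but its SE went from 0.128 to 0.139 and its unadjusted limma p from 2.11e-06 to 3.3e-05.

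Deviations from the group means were correlated between control and VPA arrays. Each VPA array correlated best with the control of its own number, at 0.0841, 0.451 and 0.284 for numbers 1, 2 and 3. The value for number 1 was small, however, and control 1 deviated most like VPA 3 (0.2). Whether the replicate numbers pair the samples is thus unsettled, and the main fit takes no account of a pairing.

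Signs turned only in genes that were not called. Acot2 was at -0.0106 after a second quantile normalization. Without both replicates 2, Cpt2 was at 0.0751, Crat at 0.0087, Etfb at 0.0268, Pex19 at 0.014 and Ppara at -0.0271. Over the settings that left out 1 array, differences that changed sign ran for Acsl4 from -0.034 to 0.13, for Acot2 from -0.108 to 0.114, for Cpt2 from -0.0898 to 0.0743, for Crat from -0.0799 to 0.0127, for Acadvl from -0.115 to 0.0502, for Etfa from -0.164 to 0.0788, for Etfb from -0.077 to 0.0599, for Acox3 from -0.00141 to 0.244, for Acaa1a from -0.0221 to 0.0885, for Eci2 from -0.0743 to 0.0405, for Cat from -0.024 to 0.305, for Pex19 from -0.0982 to 0.0401, for Ppara from -0.0236 to 0.0919, for Pparg from -0.133 to 0.00576 and for Pdk4 from -0.0132 to 0.16.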
